A study of Homo sapiens with 4 samples.

Results

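The fibroblast growth factor (FGF) genes described here are 10 rows of a deposited gene count table: the ligands FGF4, FGF3, FGF19 and FGF2, the receptors FGFR2, FGFR3, FGFR4 and FGFRL1, and the feedback inhibitors SPRY2 and SPRY4. They were chosen by name, with earlier results of these data known, and all 10 were found among the 28277 genes of the table. RNA sequencing was done on NCI-H520, a permanent line grown from a squamous lung tumour and labelled as wild type, kept in RPMI-1640 medium with 15% fetal bovine serum. The Vehicle group held 2 libraries of cells given ultrapure water, and the Hx1R8 group held 2 libraries of cells given 10 µM Hx1R8 for 12 h. The series concerns self-association of the transcription factor SOX2 and resistance to chemotherapy. The makeup of Hx1R8 was not given in the sources used here. All 4 libraries come from the same line, and nothing in the labels says whether replicates were separate cultures, so p-values reflect the spread among these libraries only, which may be technical.

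FGFs are secreted proteins that, together with heparan sulfate on the cell surface, bring FGF receptors into pairs and switch on their tyrosine kinases. The receptors signal through the adaptor FRS2 to RAS and ERK, and ERK activity raises the transcription of inhibitors such as the Sprouty genes, which feed back on the pathway. Squamous lung tumours are known for extra copies of the receptor gene FGFR1, and FGF3, FGF4 and FGF19 lie beside the cyclin gene CCND1 in a part of chromosome 11 that is also often amplified in squamous cancers. FGF4 is a textbook target of SOX2 and OCT4 in embryonic stem cells.

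The DNA just before the transcription start is shown for 3 of the genes, a ligand and a pair of receptors, to let the levels below be read beside the promoter letters. RefSeq (GRCh38.p14) held a promoter for 8 of the 10 genes, all but FGF4 and FGF19, and each window is the 250 bases before the start site on the gene's own strand. Capitals mark matches on either strand to the GC box (GGGCGG), the CCAAT box (CCAAT) and the core recognised by SOX proteins (CATTGT). No match in these 3 windows overlapped another.
FGF3 (chr11:69819417-69819666, minus strand): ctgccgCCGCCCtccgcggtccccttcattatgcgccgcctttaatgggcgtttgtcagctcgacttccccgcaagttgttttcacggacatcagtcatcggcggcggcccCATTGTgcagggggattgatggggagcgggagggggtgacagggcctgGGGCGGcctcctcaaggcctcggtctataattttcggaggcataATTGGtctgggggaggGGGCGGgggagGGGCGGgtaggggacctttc
FGFR3 (chr4:1793043-1793292, plus strand): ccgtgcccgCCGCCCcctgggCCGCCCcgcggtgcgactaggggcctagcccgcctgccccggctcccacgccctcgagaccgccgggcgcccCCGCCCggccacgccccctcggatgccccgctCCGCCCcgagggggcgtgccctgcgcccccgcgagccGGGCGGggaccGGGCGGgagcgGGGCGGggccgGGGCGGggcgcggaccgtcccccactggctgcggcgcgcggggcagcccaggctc
FGFR4 (chr5:177086665-177086914, plus strand): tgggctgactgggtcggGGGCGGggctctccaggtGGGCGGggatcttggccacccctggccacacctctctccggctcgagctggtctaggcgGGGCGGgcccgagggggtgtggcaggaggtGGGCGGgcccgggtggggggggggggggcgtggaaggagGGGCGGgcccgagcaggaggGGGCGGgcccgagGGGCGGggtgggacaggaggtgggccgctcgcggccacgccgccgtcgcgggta

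The FGF3 window held 4 GC boxes, 1 CCAAT box and 1 SOX core. FGFR3 held 8 GC boxes and FGFR4 held 7, and neither held a CCAAT box or a SOX core. Of the 8 genes searched, 8 had a GC box, against 42.6% of 35116 RefSeq promoter windows of this length. The 8 windows were also rich in G and C, from 64.4% (FGF3) to 86.8% (FGFR3), against a median of 58% over all windows. Shares were not compared at equal GC content. For each of the 8 genes only the window of the most upstream start was searched, while the 35116 windows were not picked in this way. The CCAAT box was found in 3 of the 8, against 32.0% of all windows, and the SOX core in 1, FGF3, against 9.29%. The TATA box (TATAAA), the octamer of POU factors (ATGCAAAT) and an ETS core (CCGGAAG) were found in 0 of the 8, against 10.7%, 1.63% and 8.52% of all windows. A match is a description of letters and not a measured binding site.

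Total counts ran from 17259403 to 20920857 per library, so that a floor of 3 reads stood at 0.143 to 0.174 CPM (read counts scaled to the library total and to TMM factors, which correct for library composition). SOX2 was at 528 ± 18.6 CPM in Vehicle against 509 ± 17.4 CPM in Hx1R8 (SD, n = 2 each), and was the highest of the 8 markers of the labelled squamous type. The keratin gene KRT6A was at 19.8 CPM in Vehicle against 17.4 CPM in Hx1R8 (unadjusted p = 0.0451) and the desmocollin gene DSC3 at 6.09 and 7.57 CPM (unadjusted p = 0.0285), and neither was called by edgeR. KRT5 was at 1.67 and 1.53 CPM, TP63 at 0.431 and 0.648 CPM and PKP1 at 0.173 and 0.206 CPM in Vehicle and Hx1R8, and KRT14 and DSG3 had 0 reads in all 4 libraries. Both groups were below 1 CPM for 8 of 11 fibroblast and endothelial markers and for 6 of 8 immune markers, with PECAM1, COL3A1, PTPRC and CD3E at 0 reads. The remaining fibroblast and endothelial markers were COL1A1 at 8.18 and 7.73 CPM, THY1 at 2.41 and 2.61 CPM and KDR at 1.98 and 1.41 CPM in Vehicle and Hx1R8. The remaining immune markers were CD14 at 1.35 and 1.02 CPM and CD68 at 1.06 and 0.783 CPM.

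None of the 10 genes passed the test between Hx1R8 and Vehicle. By edgeR's quasi-likelihood test with Benjamini-Hochberg adjustment over 14482 genes, 3 genes of the whole table were called (0.0207%), 2 of them higher (0.0138%) and 1 lower (0.00691%), and 0 of the 10 were. The adjusted p of each of the 10 genes was 0.9999. DESeq2 and limma-voom also called 0 of the 10. At an unadjusted p under 0.05 stood 1 of the 10, FGFR2, against 3.39% of all genes. All 10 passed the filter on low counts, but FGFR2 did so only through the Hx1R8 libraries. The whole-table count moved with single libraries, to 41 genes higher and 38 lower without Vehicle replicate 1 and 13 higher and 18 lower without Vehicle replicate 2, and 0 of the 10 genes were called in either setting. In 3 of the 10 the groups did not overlap in CPM (FGF4 and FGFR2 with Hx1R8 above, FGF19 with Hx1R8 below). This was so for 29.8% of all tested genes (14.7% above and 15.2% below). For FGFR2 the separation follows from the filter, whose line both Hx1R8 libraries passed and neither Vehicle library did.

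**Figure D1:**
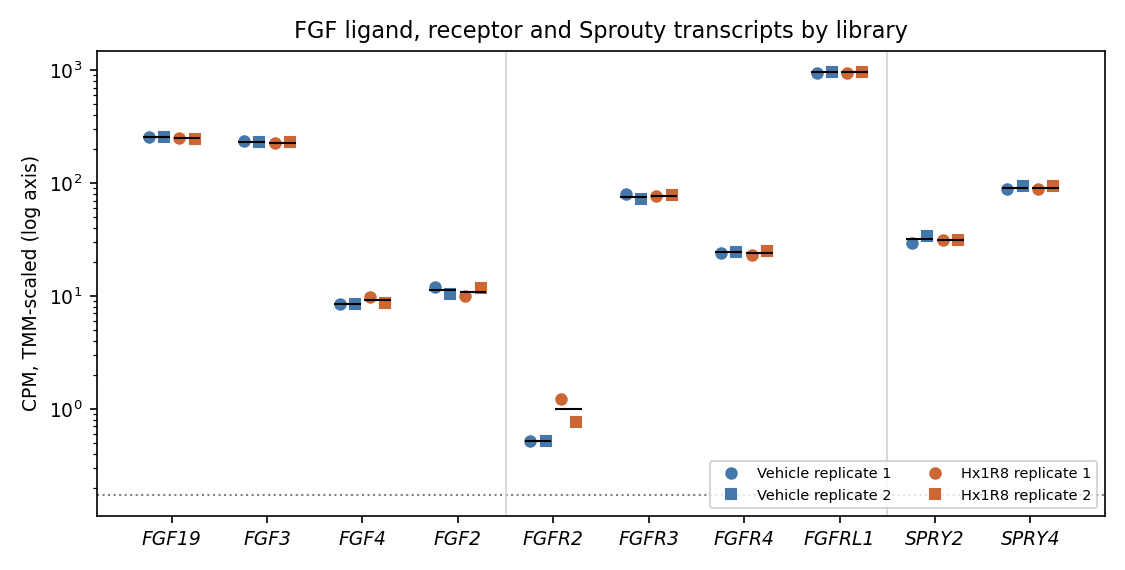
TMM-scaled CPM of the 10 genes in each library (log axis): circles are replicate 1, squares replicate 2, blue Vehicle, orange Hx1R8, black lines the group means and the dotted line the highest floor of 3 reads (0.174 CPM). The genes spread from 0.517 CPM (Vehicle mean of FGFR2) to 959 CPM (Hx1R8 mean of FGFRL1), while the 4 libraries of each gene lie close together except for FGFR2.

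Among the ligands, FGF19 and FGF3 were the abundant pair. FGF19, an endocrine ligand that regulates bile acid synthesis, was at 258 and 256 CPM in Vehicle replicates 1 and 2 and at 250.3 and 248 CPM in Hx1R8 replicates 1 and 2. Both Hx1R8 libraries lay below both Vehicle libraries, by a small margin. The log2 fold change was -0.05 (SE 0.05), with a 95% interval of the fold between 0.908 and 1.03. FGF3, first known as an oncogene activated by mouse mammary tumour virus, was at 234 and 232 CPM in Vehicle and at 226 and 232 CPM in Hx1R8, so the groups overlapped. Its log2 fold change was -0.03 (SE 0.05), with a fold between 0.920 and 1.05.

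FGF4 and FGF2 were expressed at far lower levels. FGF4, a ligand of early embryonic and germ cell tumour cells, had 148 and 146 reads in Vehicle and 168 and 180 in Hx1R8, or 8.45 and 8.43 CPM against 9.75 and 8.58 CPM. Hx1R8 replicate 1 was the high library, and Hx1R8 replicate 2 was close to Vehicle. The log2 fold change of FGF4 was 0.11 (SE 0.12), with a fold between 0.908 and 1.29, and it was 0.025 without Hx1R8 replicate 1. FGF2, a broadly expressed ligand that lacks a conventional secretion signal, was at 12.0 and 10.5 CPM in Vehicle and at 9.98 and 11.7 CPM in Hx1R8. The Vehicle and Hx1R8 libraries of FGF2 interleaved, and the log2 fold change was -0.05 (SE 0.11). Of the 6775 exon bases of FGF2 (chromosome 4, 122826708 to 122898236), 704 also belong to NUDT6 on the opposite strand. NUDT6 was at 1.67 CPM in Vehicle against 2.24 CPM in Hx1R8, and with a strand setting not given in the sources used here, reads on those bases cannot be divided between the pair. None of the other 9 genes shared an exon base with another listed gene.

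Levels of different genes were compared per kilobase of listed exon (RPKM). The listed length sums all exons of a gene and can differ from that of the transcripts expressed, so ratios between genes depend on it. On that scale FGF3 stood at 150 ± 2.36 RPKM and FGF19 at 139 ± 2.65 RPKM (mean ± SD over the 4 libraries of both groups), with FGF3 above FGF19 in each library by a ratio of 1.07 to 1.11. FGF4 was at 2.78 ± 0.20 RPKM, and FGF3 exceeded it by 47.6- to 57.0-fold. FGF2 was at 1.63 ± 0.14 RPKM. Of the 14482 tested genes, 97.9% had a lower RPKM than FGF3 and 97.7% a lower RPKM than FGF19, against 33.6% for FGF4 and 25.6% for FGF2. FGF3 and FGF19 together made up 94.9% to 95.6% of the summed RPKM of all 22 FGF ligand genes, depending on the library, FGF4 0.869% to 1.03% and FGF2 0.492% to 0.579%.

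The other 18 ligand genes were scarce or without reads, and none was called. Of these, 9 passed the filter, 5 with log2 fold changes above 0 and 4 below. FGF9, an autocrine ligand with a preference for FGFR3, was the highest of them per length at 3.54 ± 0.17 RPKM, a level above that of FGF4. FGF13, one of the intracellular FGF homologous factors that do not act through FGF receptors, had the most reads of these, at 21.4 CPM in Vehicle against 22.7 CPM in Hx1R8 (log2 fold change 0.08, SE 0.08). The homologous factor FGF11 was at 5.77 CPM in Vehicle against 4.91 CPM in Hx1R8 (log2 fold change -0.24, SE 0.15). FGF18, FGF12, FGF20, FGF1, FGF8 and FGF22 each had group means between 0.891 and 2.63 CPM. FGF5, FGF6 and FGF16 had 0 reads in all 4 libraries, and FGF7 and FGF10, ligands usually made by stromal cells, had at most 3 reads in any library.

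**Figure D2:**
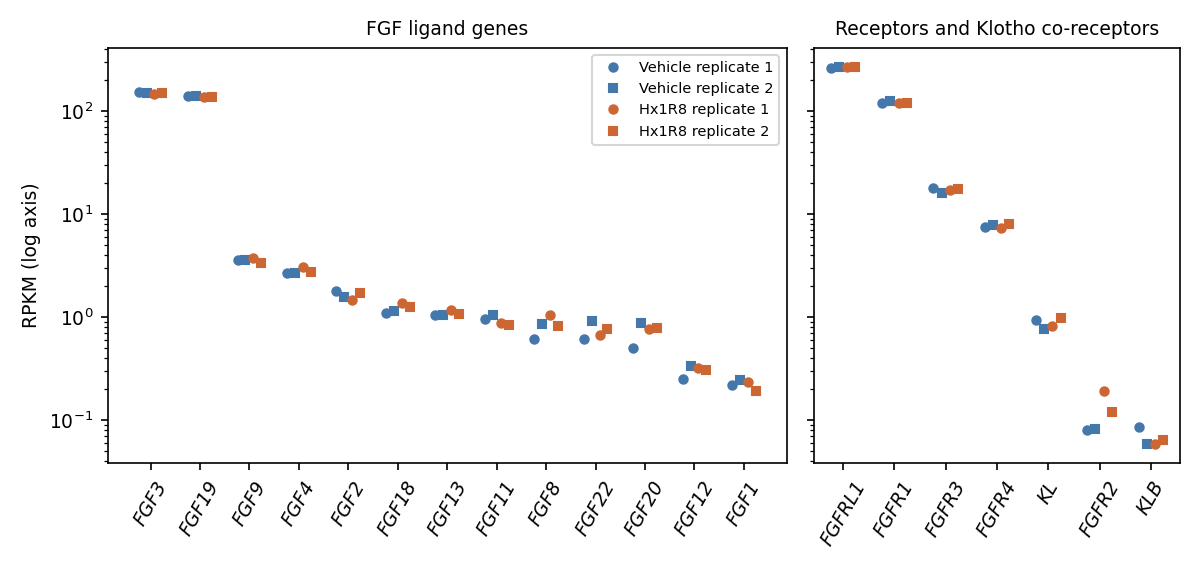
RPKM (log axis) in each library for the 13 FGF ligand genes that passed the filter and for the 7 receptor and Klotho co-receptor genes, ordered by mean level; circles are replicate 1, squares replicate 2, blue Vehicle and orange Hx1R8. FGF3 (150 RPKM) and FGF19 (139 RPKM) stand far above FGF9 (3.54 RPKM), and FGFRL1 (268 RPKM) stands above FGFR1 (121 RPKM).

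FGFRL1 was the most abundant of the receptors. FGFRL1, which binds FGFs but has no kinase domain, was at 949 and 966 CPM in Vehicle and at 952 and 967 CPM in Hx1R8, and the groups overlapped. Its log2 fold change was 0.0029 (SE 0.05), with a fold between 0.941 and 1.07. Per length it stood at 268 ± 2.73 RPKM, above 99.1% of the tested genes, and exceeded FGFR1 by 2.18- to 2.24-fold in each library. The listed exons span 3570 bases for FGFRL1 and 6303 for FGFR1, so the levels of these genes were closer in CPM. FGFR1 itself, the receptor known for gene amplification in this cancer type, was at 121 ± 2.14 RPKM, with 769 ± 21.3 CPM in Vehicle against 760 ± 3.16 CPM in Hx1R8 (SD, n = 2 each; log2 fold change -0.02, SE 0.05).

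FGFR3 and FGFR4 made up the remainder of the kinase receptors, and FGFR2 was the scarcest. FGFR3 was at 79.4 and 72.0 CPM in Vehicle and at 76.4 and 77.9 CPM in Hx1R8. Both Hx1R8 libraries lay inside the Vehicle range, and the log2 fold change was 0.03 (SE 0.06). FGFR4, the main receptor of FGF19 in liver, was at 23.9 and 24.7 CPM in Vehicle and at 23.0 and 25.2 CPM in Hx1R8. Its groups overlapped, with a log2 fold change of -0.0055 (SE 0.08). Of the summed RPKM of FGFR1 to FGFR4, FGFR1 took 82.5% to 83.8%, FGFR3 10.9% to 12.3%, FGFR4 5.03% to 5.44% and FGFR2 0.0549% to 0.132%, depending on the library. Counts per gene do not separate the receptors' splice forms, which differ in the ligands they bind.

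FGFR2 had the largest difference of the 10 genes, on few reads. It had 9 reads in each Vehicle library and 21 and 16 in the Hx1R8 libraries, or 0.514 and 0.520 CPM against 1.22 and 0.763 CPM. Both Hx1R8 libraries lay above both Vehicle libraries. The exact Poisson 95% intervals (counting error only) were 0.235 to 0.976 and 0.238 to 0.987 CPM in Vehicle replicates 1 and 2. They were 0.754 to 1.86 and 0.436 to 1.24 CPM in Hx1R8 replicates 1 and 2, so each overlapped both Vehicle intervals. The log2 fold change was 0.90 (SE 0.41, unadjusted p = 0.0359), with a fold between 1.04 and 3.33. The low-count filter asked for 0.574 CPM in at least 2 libraries, and both Vehicle libraries lay below that line and both Hx1R8 libraries above it, so FGFR2 was tested only because it was higher in Hx1R8. Without Hx1R8 replicate 1 the log2 fold change was 0.56 and without Hx1R8 replicate 2 it was 1.23, with adjusted p between 0.5825 and 0.9999 over its 12 alternatives.

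The Klotho co-receptors, which endocrine FGFs need for strong receptor binding, were scarce. KLB, the partner of FGF19, had 9 and 6 reads in Vehicle and 6 and 8 in Hx1R8, below the filter, and stood at 0.066 ± 0.013 RPKM. KL, the partner of FGF23, was at 4.28 CPM in Vehicle against 4.49 CPM in Hx1R8 (log2 fold change 0.08, SE 0.17).

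The Vehicle and Hx1R8 means lay close together for each of the feedback inhibitors SPRY2 and SPRY4. SPRY4 was at 88.2 and 93.5 CPM in Vehicle and at 88.3 and 94.0 CPM in Hx1R8, and replicate 2 was the higher library in both groups. Its log2 fold change was 0.0068 (SE 0.05), with a fold between 0.931 and 1.08. SPRY2 was at 29.7 and 33.9 CPM in Vehicle and at 31.5 and 31.4 CPM in Hx1R8, with both Hx1R8 libraries inside the Vehicle range. Its log2 fold change was -0.01 (SE 0.08), with a fold between 0.891 and 1.10. Per length SPRY4 stood at 17.1 ± 0.60 RPKM and SPRY2 at 9.14 ± 0.49 RPKM, with SPRY4 higher by 1.80- to 1.95-fold in each library.

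In order of RPKM the 10 genes ran FGFRL1, FGF3, FGF19, FGFR3, SPRY4, SPRY2, FGFR4, FGF4, FGF2 and FGFR2. The ranges over the 4 libraries overlapped for a single pair of neighbours, FGFR3 (16.2 to 17.8 RPKM) and SPRY4 (16.6 to 17.7 RPKM). In 9 of the 10 genes, all but FGFR2, the 95% interval stayed inside a 1.5-fold change either way, as it did in 81.4% of all tested genes. For 7 of the 10 it stayed inside 1.2-fold, against 57.6% of all tested genes.

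**Figure D3:**
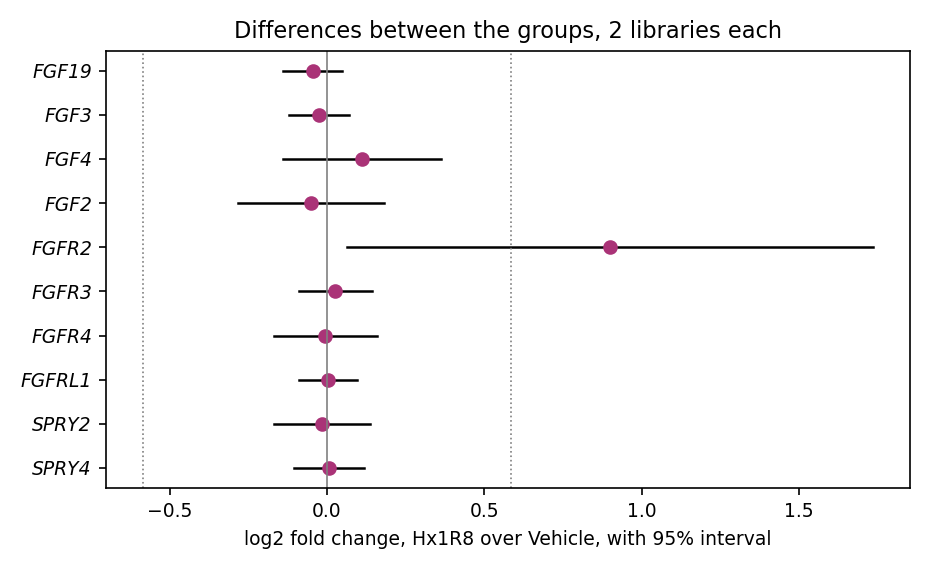
Log2 fold change of Hx1R8 over Vehicle (x axis) for each of the 10 genes, with the 95% interval from edgeR as a bar and 1.5-fold changes as dotted lines. FGFR2 (0.90) stands to the right with an interval up to 1.74, and the other 9 intervals lie between the dotted lines.

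FGF19, FGF4 and FGF3 lie next to each other on chromosome 11 in that order (hg38, 69698238 to 69704022, 69771023 to 69775341 and 69809968 to 69819416, all on the minus strand). The start of FGF4 is 44.1 kb from that of FGF3, and that of FGF19 is 115 kb from it. CCND1, the cyclin D1 gene, starts 178 kb away and stood at 109 ± 0.51 RPKM, and FGF19 exceeded it by 1.24- to 1.30-fold in each library. Between CCND1 and FGF19 lies LTO1, a ribosome biogenesis factor, at 11.5 RPKM. The scarce FGF4 thus had an abundant neighbour on each side. ANO1, a chloride channel gene on the far side of FGF3, was at 6.61 RPKM, followed by FADD, a death receptor adaptor, at 21.5 RPKM, PPFIA1 at 23.9 RPKM and CTTN, the cortactin gene, at 58.5 RPKM. MYEOV, 525 kb before FGF3, had at most 4 reads in any library. High levels were not confined to the genes nearest FGF3. Farther out, GAL was at 93.0 RPKM, MRPL21 at 69.9, CPT1A at 56.6, DHCR7 at 52.2 and PPP6R3 at 38.5 RPKM, while TPCN2 was at 4.72 and SHANK2 at 0.075 RPKM. Of the 20 other genes listed within this neighbourhood, 17 were tested and 0 were called by edgeR, DESeq2 or limma-voom, with 0 at an unadjusted p under 0.05. Their median log2 fold change was 0.01, against -0.0018 over all tested genes, and MRPL21, a mitochondrial ribosomal protein gene, had the lowest value at -0.11 (SE 0.06). Copy number was not measured.

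**Figure D4:**
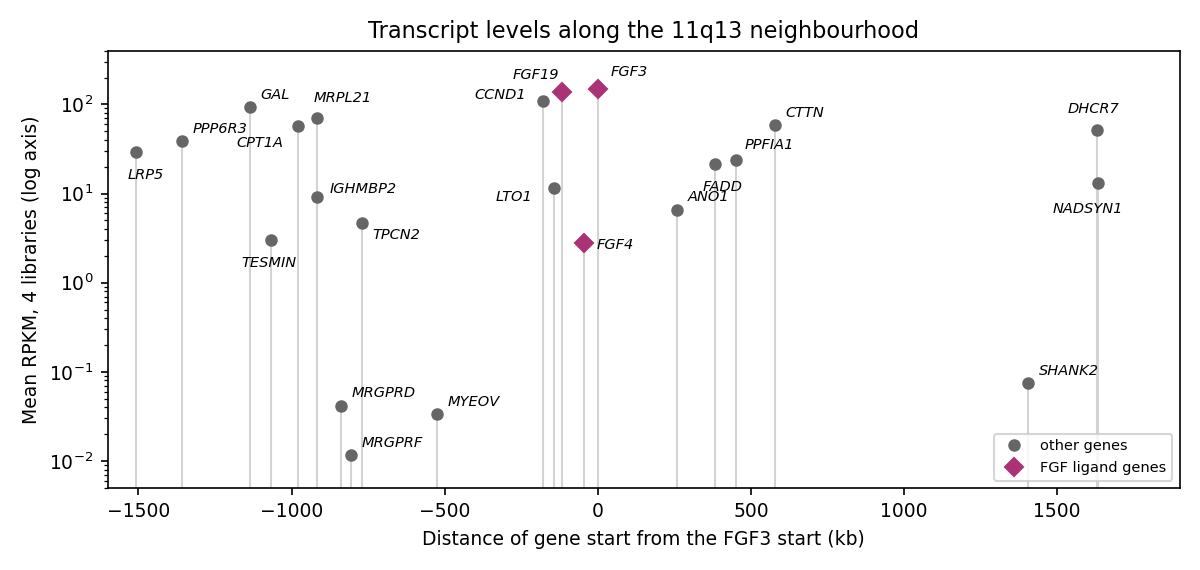
Mean RPKM over the 4 libraries (log axis) of 23 genes around FGF3, by the distance of each gene's start from the start of FGF3 in kb; diamonds mark the FGF ligands. FGF19 (139 RPKM) and FGF3 (150 RPKM) are the highest points and FGF4 (2.78 RPKM) lies between them.

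Most of the listed genes that act with FGFs at the cell surface passed the low-count filter, and none was called. Of 12 heparan sulfate proteoglycans 11 were tested, with 4 log2 fold changes above 0, 7 below and a median of -0.03. SDC1 (syndecan-1) had the highest level per length, 193 RPKM, and was at 650.3 ± 14.9 CPM in Vehicle against 637 ± 3.54 CPM in Hx1R8 (SD, n = 2 each). GPC4 (glypican-4) was at 27.5 RPKM, with 134 and 139 CPM, and AGRN (agrin) at 19.2 RPKM, with 156 CPM in both groups. GPC2 had the smallest unadjusted p of this list (0.0478), at 6.98 CPM in Vehicle against 5.68 CPM in Hx1R8 (log2 fold change -0.30, SE 0.15). Of 12 enzymes that build or edit heparan sulfate 10 were tested, with 6 above 0, 4 below and a median of 0.04. EXT2, a heparan sulfate polymerase subunit, was at 171 CPM in Vehicle against 176 CPM in Hx1R8, and the sulfotransferase gene HS2ST1 at 132 and 136 CPM. HS6ST3, a 6-O-sulfotransferase gene, had 9 and 8 reads in Vehicle and 17 and 19 in Hx1R8 (log2 fold change 0.94, SE 0.41, unadjusted p = 0.0284), and like FGFR2 it passed the filter only through the Hx1R8 libraries. The editing enzymes SULF1 and SULF2, which remove 6-O-sulfates, had at most 7 reads in any library. Of 10 FGF binding and receptor-associated proteins 7 were tested, with 2 above 0 and 5 below. CDH2 (N-cadherin), which can bind FGF receptors, was at 117 and 113 CPM in Vehicle and Hx1R8, and the carrier protein gene FGFBP3 at 3.45 and 2.51 CPM (log2 fold change -0.45, SE 0.20, unadjusted p = 0.0307).

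The relay from receptor to ERK and its readouts had no called gene. All 23 adaptor and RAS to ERK cascade genes were tested, with 15 log2 fold changes above 0, 8 below and a median of 0.01, and all 23 intervals stayed inside 1.5-fold. PTPN11, the phosphatase SHP2, was at 461 CPM in Vehicle against 467 CPM in Hx1R8, and the adaptor GRB2 at 186 and 178 CPM. FRS2, the docking protein of FGF receptors, was at 25.9 and 27.2 CPM (log2 fold change 0.07, SE 0.08). Of the 13 feedback inhibitors other than SPRY2 and SPRY4, 12 were tested, with 6 above 0, 6 below and a median of -0.0093. DUSP6, the ERK phosphatase, was at 101 ± 2.17 CPM in Vehicle against 98.2 ± 1.94 CPM in Hx1R8 (SD, n = 2 each; log2 fold change -0.04, SE 0.05), and SPRED1 was at 76.7 and 78.3 CPM. DUSP5 had the smallest unadjusted p of this list (0.0348), on 34 and 15 reads in Vehicle and 43 and 40 in Hx1R8 (log2 fold change 0.63, SE 0.29). SPRY1 was at 0.719 CPM in Vehicle against 0.999 CPM in Hx1R8 (log2 fold change 0.47, SE 0.38), and SPRY3 was at 1.03 and 1.07 CPM. All 13 ERK-responsive targets were tested, with 7 above 0, 6 below and a median of 0.01. FOSL1 had the smallest edgeR unadjusted p of these (0.136), on 14 and 18 reads in Vehicle and 9 and 14 in Hx1R8. Its log2 fold change was -0.61 (SE 0.40). PHLDA1 was at 698 and 709 CPM in Vehicle and Hx1R8, CCND1 at 462 and 465 CPM, the immediate early gene EGR1 at 354 and 346 CPM (log2 fold change -0.03, SE 0.05) and the ETS factor gene ETV5 at 296 and 294 CPM (-0.01, SE 0.05).

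Over the pathway lists together, 87 of the 104 genes other than the 10 were tested, 46 above 0 and 41 below, with a median log2 fold change of 0.00035 against -0.0018 over all tested genes. None was called by edgeR, DESeq2 or limma-voom. An edgeR unadjusted p under 0.05 was found for 4 of the 87 (GPC2, HS6ST3, FGFBP3 and DUSP5), against 3.39% of all tested genes. Each had an edgeR adjusted p of 0.9999, and HS6ST3 was tested only because it was higher in Hx1R8. For 72 of the 87 the 95% interval stayed inside 1.5-fold, against 81.4% of all tested genes.

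**Figure D5:**
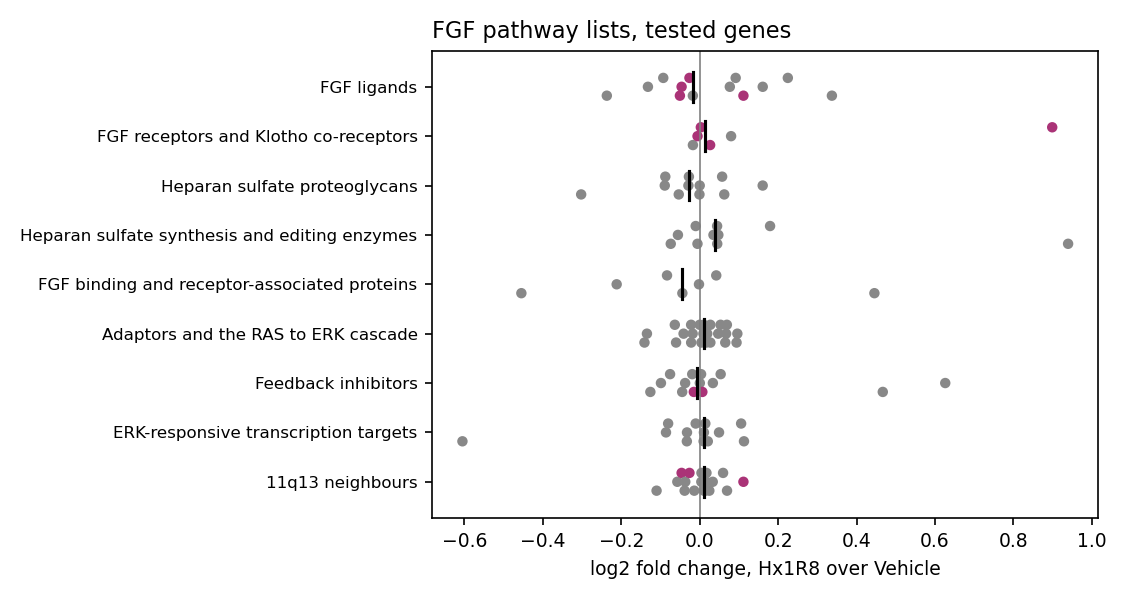
Log2 fold change of Hx1R8 over Vehicle (x axis) for each tested gene of 9 lists, with the list median as a black bar; purple points are the 10 FGF genes of this account and grey points the others, spread vertically for legibility. Most points lie near 0, and those farthest out are FGFR2 (0.90), HS6ST3 (0.94), DUSP5 (0.63) and FOSL1 (-0.61), genes with group means of at most 2.20 CPM.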

How the data were processed

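The authors deposited raw counts per gene for 4 libraries in 1 table, which also lists exon positions and summed exon length, per the file headers. Alignment used STAR 2.7.9 and hg38, per the submitters' processing notes, with the counting tool, annotation and strand setting not given in the sources used here. Each library used 1.5 µg of total RNA, per the labels' protocols. After 2 lines holding a broken row were left out, 28277 genes remained. Rows naming no gene numbered 0.

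The test was that of edgeR 4.0.16, run in R 4.3.3 (quasi-likelihood test, TMM factors, filterByExpr, group as the only term, two-sided, Benjamini-Hochberg over 14482 genes, threshold 0.05). The code was also run on counts simulated from the means and dispersions fitted to these libraries. Changes were set there only in genes with higher counts, so that run does not cover changes in scarce genes such as FGFR2. Standard errors were derived from the edgeR fit to the deposited counts, as the absolute log2 fold change over the square root of the F statistic. The 95% intervals were built from them with the t distribution. The fit rests on 2 residual and 36.9 prior degrees of freedom. Log2 fold changes are Hx1R8 over Vehicle. RPKM is CPM per kilobase of listed exon length. Alternatives were other scaling factors, other filters, DESeq2 1.42.0, limma-voom (limma 3.58.1), robust dispersions, a replicate block and each library left out. Total counts were 17483349 and 17352323 in Vehicle and 17259403 and 20920857 in Hx1R8, which sets the precision of scarce genes. The libraries differed by more than sampling noise (chi-square per gene 1.48 to 2.94), so none was a copy; the highest value was between the 2 Vehicle libraries and the lowest between Vehicle replicate 1 and Hx1R8 replicate 1.

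The members and lists were chosen with earlier results of these data known. Named genes were the 10 genes, and from each list the 6 highest in mean CPM, any called and the smallest unadjusted p, with FGFR1, KL, KLB, other ligands of at least 0.5 CPM, the squamous markers and genes whose exons overlap a member, of which the text gives a part. ETV1, ETV4, PECAM1, COL3A1, COL1A1, THY1, KDR, PTPRC, CD3E, CD14, CD68, SULF1 and SULF2 were added after their values were seen. So were FGF5, FGF6, FGF7, FGF10, FGF16, FRS2, SPRY1 and SPRY3. The same holds for MYEOV, GAL, DHCR7, LRP5, NADSYN1, IGHMBP2, TPCN2, TESMIN, MRGPRD, MRGPRF, SHANK2 and the 11q13 genes beside FGF3. All 164 list entries matched a gene by symbol.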

Additional observations from a re-analysis of the deposited data

How the results depend on the processing

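No FGF ligand, receptor, Sprouty or pathway list gene was called under any of the 13 alternatives, so the count of called genes was 0 in each for the 10 genes and for every list. Of 129 recomputed log2 fold changes of the 10 genes, 119 kept their sign, and the largest shift with all libraries kept was 0.064. FGFR2 was not tested under the filter of 1 CPM in 2 libraries. With each library left out in turn, the lone sample being assumed to vary like the other group, 10 values changed sign, none of them called, and the cause was not tested: FGF2 ranged from -0.18 to 0.052, FGFR3 from -0.040 to 0.099, FGFR4 from -0.077 to 0.056, FGFRL1 from -0.010 to 0.018, SPRY2 from -0.11 to 0.083 and SPRY4 from -0.041 to 0.052. FGFR2 ranged from 0.56 to 1.23 in these settings. Over the whole table the genes called higher numbered 1 with DESeq2 and 1 with robust dispersions, against 2, and 2 to 41 with a library left out, while those called lower numbered 1 to 38; the cause was not tested. With the replicate block 2 genes were higher and 1 lower, and 0 of the 10 FGF genes were called. Replicate numbers are all that pairs the samples, and the deviations of equal numbers had a correlation of 0.03 over genes. At 9 reads in each Vehicle library, depth limits any statement on FGFR2.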

Other observations

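CDH2, NCAM1 and SDC1, surface proteins that can bind FGFs or their receptors, were each expressed in both groups, with NCAM1, a neural cell adhesion molecule, at 49.8 ± 0.33 CPM in Vehicle against 51.3 ± 0.19 CPM in Hx1R8 (SD, n = 2 each; log2 fold change 0.04, SE 0.06, not called by edgeR). The ETS factor genes ETV4 and ETV1 were at 25.6 and 21.9 CPM in Vehicle and at 24.3 and 23.6 CPM in Hx1R8.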
